A study of Mus musculus with 12 samples.

Results

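The 10 genes followed here act in triglyceride synthesis and in the supply of glycerol 3-phosphate, and they were measured across 4 groups of adipocyte cultures: Gpd1, Pck1, Pcx, Gpd2, Aqp7, Gpam, Agpat2, Lpin1, Dgat1 and Dgat2. Each was taken by its symbol, from probe sets that the platform annotation assigns to that symbol alone, and the brightest such probe set, by its mean over the 12 arrays, stood for the gene. All 10 were found among the 22180 genes so measured. Only Gpd1 had a second probe set. The fit used no filter on low values, so all 10 were tested.

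Triglyceride is built on glycerol 3-phosphate. Adipocytes make this backbone from glucose through the cytosolic dehydrogenase Gpd1, or from pyruvate by glyceroneogenesis, in which pyruvate carboxylase (Pcx) and the cytosolic phosphoenolpyruvate carboxykinase (Pck1) act. Acyl chains are then added by glycerol phosphate acyltransferases such as Gpam and by Agpat2, the phosphate is removed by lipins such as Lpin1, and the last acyl chain is added by Dgat1 or Dgat2. PPARgamma, the nuclear receptor that rosiglitazone activates, is known to control many genes of lipid storage in fat cells.

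The cells were precursors of mouse inguinal fat with the genotype R26Cre/Prdm16floxEx9, which all 4 groups share: a Cre recombinase at the ubiquitously active Rosa26 locus and a floxed part of Prdm16, a regulator known for its role in brown and beige fat. During growth the precursors received 1 uM 4-hydroxytamoxifen, used to activate inducible Cre, or ethanol for 3 days. They were differentiated in 10% serum with isobutylmethylxanthine (0.5 uM), indomethacin (125 nM), dexamethasone (1 uM), insulin (20 nM) and T3 (1 nM). The groups are 4OHT_Rosi (4-hydroxytamoxifen, then 1 uM rosiglitazone), EtOH_Rosi (ethanol, then 1 uM rosiglitazone), 4OHT (4-hydroxytamoxifen, no rosiglitazone) and EtOH (ethanol, no rosiglitazone), with 3 arrays each. Every group carries the Cre and the floxed allele, so an effect of 4-hydroxytamoxifen itself and one of the excision cannot be told apart. The protocol text names rosiglitazone without singling out groups, and the group labels were followed. The labels do not say whether a group's arrays came from separate cultures, so the p-values cover the array-to-array spread alone, and that spread could be technical.

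Values are log2 probe set levels, and differences are log2 differences with the standard error of a limma fit to all 12 arrays. A gene was called at a Benjamini-Hochberg adjusted p under 0.05 over the 22180 genes. The median level of the genes was 6.60, and their 95th percentile was 10.81. The array 4OHT_Rosi 3 stood apart on the third principal component. Prdm16, the targeted gene, had 6.63 to 6.70 in 4OHT_Rosi against 7.20 to 7.46 in EtOH_Rosi, a difference of -0.71 ± 0.10 (limma, adjusted p = 0.000646). Without rosiglitazone it had 6.33 to 6.59 in 4OHT against 6.49 to 6.84 in EtOH, and these arrays overlapped. Its dimmer probe set differed by -0.07 ± 0.07 with rosiglitazone (adjusted p = 0.644, limma over 23521 probe sets). No source used here places either probe set relative to the floxed part, so these levels do not measure the excision.

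Adipocyte markers were bright in every group, with a summed level (log2 of the summed linear values of 9 genes) of 15.48 to 15.58 in 4OHT_Rosi, 15.51 to 15.54 in EtOH_Rosi, 15.26 to 15.30 in 4OHT and 15.18 to 15.23 in EtOH. In EtOH_Rosi against EtOH, 6 of those 9 rose and 0 fell. All 4 brown and beige adipocyte markers rose too, with a summed level of 12.19 to 12.43 in EtOH_Rosi against 10.04 to 10.43 in EtOH. In the same comparison 6 of 7 adipose precursor markers fell, as did 5 of 5 smooth muscle and myofibroblast, 5 of 6 macrophage and 4 of 4 endothelial markers, and 0 of these rose. Of all genes, 14.4% were called higher and 16.3% lower there. The summed level of the precursor markers was 12.34 to 12.55 in EtOH_Rosi against 13.64 to 13.74 in EtOH. In EtOH_Rosi against EtOH, the macrophage markers had 12.32 to 12.45 against 12.82 to 12.97, the endothelial markers 11.51 to 11.66 against 12.19 to 12.43, and the smooth muscle markers 12.04 to 12.50 against 13.24 to 13.42. In 4OHT_Rosi against 4OHT, 3 of 9 adipocyte markers and 3 of 4 brown and beige markers rose. In that comparison 6 of 7 precursor, 4 of 5 smooth muscle, 3 of 6 macrophage and 3 of 4 endothelial markers fell. There, 11.6% of all genes were called higher and 12.1% lower. No marker of these lists had a mean level under 5.22, the 25th percentile of the genes. The liver and kidney markers Alb, Apoa2 and Umod also lay above it, so this level does not tell which markers the cells express. In cultures measured as a whole, fewer cells of a type and less RNA per cell cannot be told apart, and the part of this shift in the results below was not tested.

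Promoter sequence was available for 7 of the 10 genes, from RefSeq on GRCm38.p6. The 250 bases before an annotated start are shown for Lpin1, Aqp7 and Pck1, which rosiglitazone raised, and for Gpam, which it lowered, so that the letters before genes of opposite direction can be compared. Capitals mark AGGTCA, the unit that PPAR elements repeat, CCAAT, and TGACG, the core of the cAMP response element, each on either strand.
Lpin1 (chr12:16610967-16611216, minus strand): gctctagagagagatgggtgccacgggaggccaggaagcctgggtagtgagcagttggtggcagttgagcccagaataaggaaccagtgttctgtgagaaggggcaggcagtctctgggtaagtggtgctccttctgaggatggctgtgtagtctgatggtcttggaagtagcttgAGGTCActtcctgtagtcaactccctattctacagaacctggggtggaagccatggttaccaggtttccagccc
Aqp7 (chr4:41048137-41048386, minus strand): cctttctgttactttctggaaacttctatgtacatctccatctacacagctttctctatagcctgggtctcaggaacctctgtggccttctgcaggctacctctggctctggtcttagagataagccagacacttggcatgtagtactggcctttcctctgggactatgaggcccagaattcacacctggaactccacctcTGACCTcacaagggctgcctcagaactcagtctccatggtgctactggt
Pck1 (chr2:173152823-173153072, plus strand): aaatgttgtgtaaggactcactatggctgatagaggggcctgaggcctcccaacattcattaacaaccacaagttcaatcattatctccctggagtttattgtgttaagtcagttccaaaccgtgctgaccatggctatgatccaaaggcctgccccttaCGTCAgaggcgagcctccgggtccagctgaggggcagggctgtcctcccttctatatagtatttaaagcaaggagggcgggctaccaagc
Gpam (chr19:55127239-55127488, minus strand): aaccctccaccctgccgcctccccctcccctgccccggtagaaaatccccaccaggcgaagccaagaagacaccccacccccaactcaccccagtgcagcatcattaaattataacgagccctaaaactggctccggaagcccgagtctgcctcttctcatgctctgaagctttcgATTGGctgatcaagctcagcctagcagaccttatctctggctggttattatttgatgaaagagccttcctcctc
The Lpin1 sequence holds AGGTCA at bases 69 to 74 before the start, and the Aqp7 sequence holds its complement at bases 44 to 49. Pck1 has the complement of TGACG at bases 86 to 90 and no AGGTCA. The stretch before this Gpam start holds the complement of CCAAT, and that before a second, downstream start holds AGGTCA. Over the 11 windows of the 7 genes, AGGTCA occurred in 3 genes (Gpam, Lpin1 and Aqp7), CCAAT in 2 (Gpam and Pcx), and TGACG in 2 (Gpam and Pck1). Counted by window, as the shares that follow are counted by start, they occurred in 4, 2 and 2 of the 11. The Aqp7 windows overlap and share an AGGTCA match. The letters were found before 14.0%, 33.8% and 17.8% of all 32851 starts in the table. The direct repeat of AGGTCA with a spacer of 1 base was in 0 of the 11 windows and in 0.0335% of all starts. No matches of different motifs overlapped. Raised and lowered genes thus both carried AGGTCA in these windows, and a match is a description of the letters only.

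Rosiglitazone changed the level of every one of the 10 genes after ethanol, and not all in one direction. Gpd1, Aqp7 and Lpin1 rose more than 2-fold, and Dgat2 and Gpam fell. In EtOH_Rosi against EtOH, 8 of 10 were called higher, against 14.4% of all genes, and 2 were called lower, against 16.3% (30.7% in either direction). The median difference of the 10 was 0.43, and that of all genes was 0.01. In 4OHT_Rosi against 4OHT, 6 were called higher (11.6% of all genes) and 2 lower (12.1%, and 23.7% in either direction), with a median of 0.24 against 0.00 over all genes. Calls were more frequent among bright genes, and of the 10 only Pck1 lay under the median level. In a fit of the genes at or above that level, EtOH_Rosi against EtOH had 27.3% called higher and 30.7% lower (58.0% in either direction). For 4OHT_Rosi against 4OHT these shares were 23.5%, 24.2% and 47.7%. Leaving out any 1 array kept the counts of 8, 2 and 2, while the count of 6 lay between 5 and 7.

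**Figure D1:**
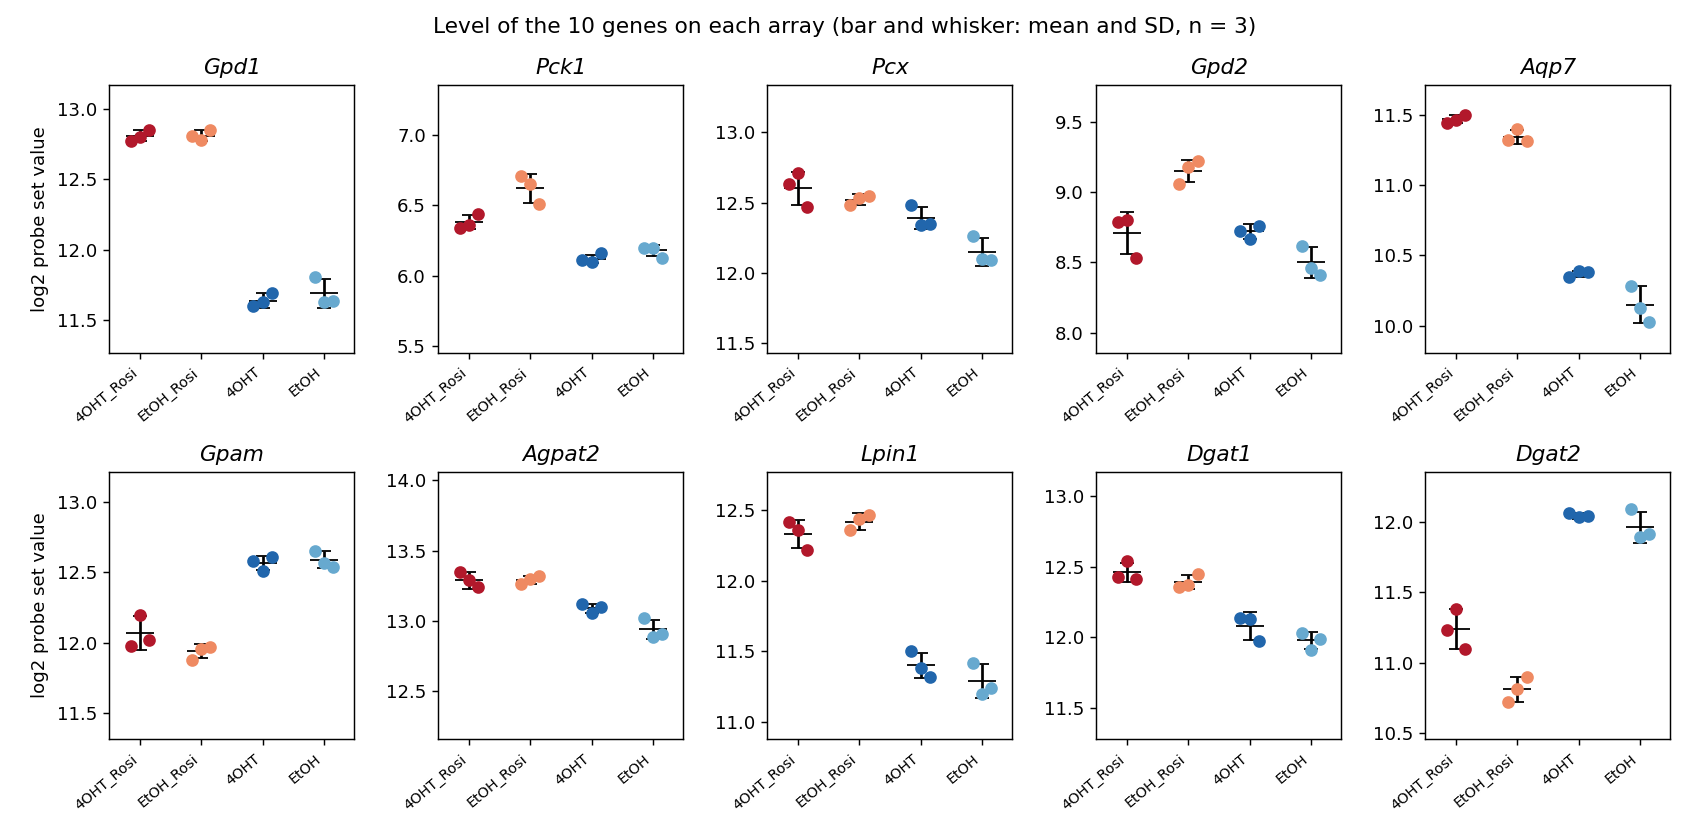
The log2 probe set value of each gene is plotted for the 3 arrays of 4OHT_Rosi, EtOH_Rosi, 4OHT and EtOH, with the mean and SD as bar and whisker. Each panel spans the same number of log2 units around its own centre, so slopes can be compared but heights between genes cannot. The rosiglitazone groups lie above the others for Gpd1, Aqp7 and Lpin1 and below them for Gpam and Dgat2, while Gpd2 and Pck1 are highest in EtOH_Rosi.

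Among the genes that supply glycerol 3-phosphate, Gpd1, the dehydrogenase that makes it from a product of glycolysis, had log2 levels of 12.77, 12.80 and 12.85 in 4OHT_Rosi, 12.81, 12.78 and 12.85 in EtOH_Rosi, 11.60, 11.63 and 11.69 in 4OHT, and 11.81, 11.63 and 11.64 in EtOH. All 6 rosiglitazone arrays lay above the other 6, and within each set of 6 the 4-hydroxytamoxifen and ethanol arrays overlapped. The rise was 2.24-fold after 4-hydroxytamoxifen (1.17 ± 0.06, limma, adjusted p = 3.01e-08) and 2.17-fold after ethanol (1.12 ± 0.06, adjusted p = 3.45e-08). Its dimmer probe set, read in a limma fit of all 23521 single-symbol probe sets, rose by 0.93 ± 0.11 and 0.83 ± 0.11 in these comparisons and was called in both.

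Pck1, the carboxykinase that is rate-limiting for glyceroneogenesis, was measured near the median level of all genes. It read 6.34, 6.36 and 6.44 in 4OHT_Rosi, 6.71, 6.65 and 6.51 in EtOH_Rosi, 6.11, 6.10 and 6.16 in 4OHT, and 6.20, 6.20 and 6.13 in EtOH. The 3 EtOH_Rosi arrays were the highest, the 3 of 4OHT_Rosi came next, and the 4OHT and EtOH arrays overlapped. The rosiglitazone rise was 0.26 ± 0.06 after 4-hydroxytamoxifen (limma, adjusted p = 0.00756) and 0.45 ± 0.06 after ethanol (adjusted p = 7.18e-05). Alb, Apoa2 and Umod, markers of liver and kidney, where Pck1 serves gluconeogenesis, had group means between 5.33 and 6.17, and 0 of these 3 were called in any comparison. The Pck1 means without rosiglitazone, 6.12 in 4OHT and 6.18 in EtOH, lay in or next to that range. Its differences were thus measured near a level that these liver and kidney markers also reached, which limits how their sizes can be read.

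Pcx encodes pyruvate carboxylase, which makes the oxaloacetate that Pck1 uses. It had levels of 12.63, 12.71 and 12.47 in 4OHT_Rosi, 12.48, 12.53 and 12.55 in EtOH_Rosi, 12.48, 12.34 and 12.35 in 4OHT, and 12.26, 12.10 and 12.09 in EtOH. The EtOH arrays were the lowest, and the other 3 groups overlapped or met. Rosiglitazone raised it after ethanol (0.37 ± 0.07, limma, adjusted p = 0.00135). After 4-hydroxytamoxifen the difference was 0.21 ± 0.07 and missed the threshold (adjusted p = 0.0511, with a range over the alternatives of 0.0132 to 0.189). It passed under 8 of the 21 alternatives, among them without EtOH 1 (adjusted p = 0.0425), 4OHT 1 (0.0431) or 4OHT_Rosi 3 (0.0132).

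The aquaglyceroporin gene Aqp7, whose product is the main glycerol channel of fat cells, had levels of 11.44, 11.46 and 11.50 in 4OHT_Rosi, 11.32, 11.40 and 11.31 in EtOH_Rosi, 10.35, 10.39 and 10.38 in 4OHT, and 10.28, 10.13 and 10.03 in EtOH. No 2 of the 4 groups overlapped. Rosiglitazone raised it 2.13-fold after 4-hydroxytamoxifen (1.09 ± 0.06, limma, adjusted p = 7.62e-08) and 2.29-fold after ethanol (1.20 ± 0.06, adjusted p = 3.24e-08). In both backgrounds the rise was many times the spread between arrays, whose largest SD was 0.13, in EtOH.

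Gpd2, the mitochondrial dehydrogenase that oxidises glycerol 3-phosphate and forms a shuttle with Gpd1, is known to be abundant in brown fat. Its levels were 8.79, 8.80 and 8.53 in 4OHT_Rosi, 9.06, 9.18 and 9.22 in EtOH_Rosi, 8.72, 8.67 and 8.76 in 4OHT, and 8.62, 8.46 and 8.41 in EtOH. The 3 EtOH_Rosi arrays stood above the 9 others, and 4OHT_Rosi overlapped both 4OHT and EtOH. Rosiglitazone raised it 1.58-fold after ethanol (0.66 ± 0.08, limma, adjusted p = 3.01e-05). After 4-hydroxytamoxifen the difference was -0.01 ± 0.08 (adjusted p = 0.955), which turned positive under array weights (0.03), median centring (0.01) and without 4OHT 3 (0.01) or 4OHT_Rosi 3 (0.08). Gpd2 thus followed another course than Gpd1, its partner in the shuttle, for which both rises were called.

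Along the acylation steps the genes split by direction. Gpam, the mitochondrial acyltransferase that adds the first acyl chain, had levels of 11.98, 12.20 and 12.02 in 4OHT_Rosi, 11.88, 11.96 and 11.97 in EtOH_Rosi, 12.58, 12.51 and 12.61 in 4OHT, and 12.65, 12.57 and 12.54 in EtOH. All 6 rosiglitazone arrays lay below the other 6. The fall was -0.50 ± 0.07 after 4-hydroxytamoxifen (limma, adjusted p = 8.63e-05) and -0.65 ± 0.07 after ethanol (adjusted p = 5.73e-06). Leaving out any 1 array kept both calls.

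Agpat2 adds the second acyl chain, and its loss causes lipodystrophy in humans. It was bright, with levels of 13.35, 13.29 and 13.24 in 4OHT_Rosi, 13.26, 13.30 and 13.32 in EtOH_Rosi, 13.12, 13.06 and 13.10 in 4OHT, and 13.02, 12.89 and 12.91 in EtOH. The rosiglitazone groups overlapped each other and lay above 4OHT, which lay above EtOH. The rise with rosiglitazone was 0.20 ± 0.06 after 4-hydroxytamoxifen (limma, adjusted p = 0.0193) and 0.35 ± 0.06 after ethanol (adjusted p = 0.000242). The smaller rise lost its call without 4OHT 2 (adjusted p = 0.0744) or 4OHT_Rosi 1 (0.0766). All 12 of its levels lay above the 95th percentile of genes.

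Lpin1 encodes a phosphatidate phosphatase, the enzyme that yields diacylglycerol. It read 12.42, 12.36 and 12.22 in 4OHT_Rosi, 12.36, 12.44 and 12.47 in EtOH_Rosi, 11.50, 11.38 and 11.32 in 4OHT, and 11.42, 11.20 and 11.24 in EtOH. Its rosiglitazone arrays were all above the rest, with overlap between 4-hydroxytamoxifen and ethanol on either side. It rose 1.91-fold after 4-hydroxytamoxifen (0.93 ± 0.08, limma, adjusted p = 1.33e-06) and 2.20-fold after ethanol (1.14 ± 0.08, adjusted p = 1.77e-07).

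Dgat1 and Dgat2 encode unrelated enzymes for the same last step, and they moved in opposite directions. Dgat1 had levels of 12.43, 12.54 and 12.41 in 4OHT_Rosi, 12.36, 12.37 and 12.45 in EtOH_Rosi, 12.14, 12.13 and 11.97 in 4OHT, and 12.03, 11.91 and 11.99 in EtOH. Dgat2 had 11.23, 11.38 and 11.10 in 4OHT_Rosi, 10.72, 10.81 and 10.90 in EtOH_Rosi, 12.06, 12.03 and 12.04 in 4OHT, and 12.09, 11.89 and 11.91 in EtOH. For Dgat1 the rosiglitazone arrays were the 6 highest, and for Dgat2 they were the 6 lowest. Dgat1 rose by 0.38 ± 0.07 after 4-hydroxytamoxifen (limma, adjusted p = 0.000671) and by 0.42 ± 0.07 after ethanol (adjusted p = 0.000202). Dgat2 changed by -0.81 ± 0.08 after 4-hydroxytamoxifen (adjusted p = 6.48e-06) and by -1.15 ± 0.08 after ethanol, where its level was 2.22-fold higher in EtOH (adjusted p = 2.12e-07).

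**Figure D2:**
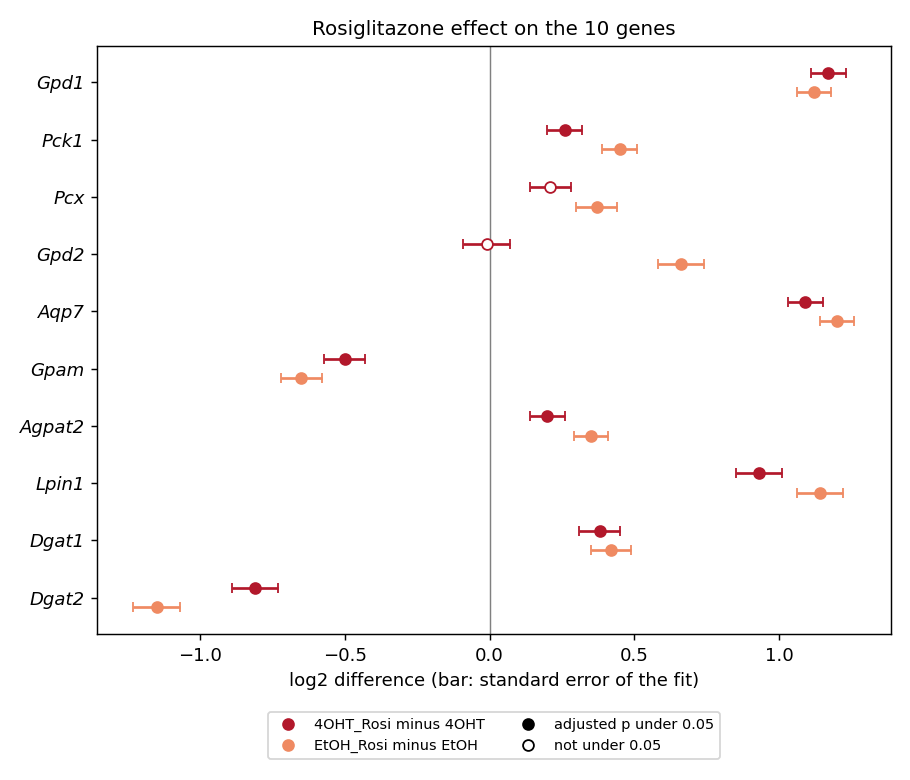
The log2 difference with rosiglitazone is plotted for each gene after 4-hydroxytamoxifen (4OHT_Rosi minus 4OHT) and after ethanol (EtOH_Rosi minus EtOH), with the standard error of the fit as the bar and filled points for an adjusted p under 0.05. Gpd1, Aqp7 and Lpin1 lie near 1 in both, Gpam and Dgat2 lie below 0 in both, and the points of Gpd2 are the farthest apart, at -0.01 and 0.66.

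With rosiglitazone, 4-hydroxytamoxifen treatment of the precursors changed 3 of the 10 genes. Dgat2 was 1.34-fold higher in 4OHT_Rosi than in EtOH_Rosi (0.43 ± 0.08, limma, adjusted p = 0.00466), so that its level lay between those of EtOH_Rosi and EtOH. Gpd2 was lower, by -0.45 ± 0.08 (adjusted p = 0.00432), and Pck1 by -0.24 ± 0.06 (adjusted p = 0.0281). The count was 1 higher, against 4.65% of all genes, and 2 lower, against 3.38% (8.03% in either direction). A fit of only the genes at or above the median level left 9 of the members, without Pck1. It called 1 member higher and 1 lower, against 11.6% and 8.51% of the genes left (20.1% in either direction). The 3 arrays of 1 group lay apart from those of the other for these genes and for Gpam and Aqp7, whose differences of 0.13 ± 0.07 and 0.12 ± 0.06 did not pass. That made 3 genes with all 4OHT_Rosi arrays higher and 2 with all lower, against 11.5% and 10.3% of all genes. Gpd1, Agpat2, Lpin1, Dgat1 and Pcx differed by -0.09 to 0.08, with overlapping arrays. The median of the 10 was 0.03, and that of all genes -0.01. Dgat2 and Gpd2 kept their calls whichever 1 array was left out. Pck1 lost its call without EtOH_Rosi 1 (adjusted p = 0.0964), EtOH_Rosi 2 (0.0958), 4OHT_Rosi 1 (0.0823) or 4OHT_Rosi 2 (0.0781), and with the replicate number as a block (0.0598), so the count of lower genes was then 1.

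Markers of brown and beige adipocytes moved in the same comparison. Ucp1, the uncoupling protein, had 6.10 to 6.29 in 4OHT_Rosi against 7.51 to 8.20 in EtOH_Rosi, and Cidea had 5.02 to 5.15 in 4OHT_Rosi against 6.20 to 6.92 in EtOH_Rosi. All 4 markers of the list fell, and their summed level was 11.20 to 11.48 in 4OHT_Rosi against 12.19 to 12.43 in EtOH_Rosi. Smooth muscle markers moved the other way: 3 of 5 rose and 0 fell, with a summed level of 12.61 to 13.05 in 4OHT_Rosi against 12.04 to 12.50 in EtOH_Rosi. Single arrays widened this difference. For Cnn1, Tagln and Acta2, the array 4OHT_Rosi 3 was the highest of its group (8.70, 10.45 and 12.60). The array EtOH_Rosi 3 was the lowest of its group for the same genes (6.62, 9.35 and 11.60). Of Cnn1, Tagln and Acta2, only Cnn1 was called (0.91 ± 0.25, limma, adjusted p = 0.0405). For Myh11 and Des, the other called genes, EtOH_Rosi 3 was not the lowest (7.82 and 6.87). Of the general adipocyte markers 0 of 9 were called. In the other lists, 1 of 7 precursor and 1 of 6 macrophage markers fell, and 1 of 4 endothelial markers rose. Of all genes, 4.65% were called higher and 3.38% lower in this comparison. The part of these shifts in the changes of Gpd2, Pck1 and Dgat2 was not tested.

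Without rosiglitazone, 4-hydroxytamoxifen gave no call among the 10 genes by limma, against 2.13% of all genes called higher and 1.79% lower (3.91% in either direction). At an unadjusted p under 0.05 there were 4, all higher in 4OHT, against 8.4% of all genes higher at that p: Pcx (0.24 ± 0.07, adjusted p = 0.0992), Aqp7 (0.23 ± 0.06, adjusted p = 0.0757), Gpd2 (0.22 ± 0.08, adjusted p = 0.187) and Agpat2 (0.15 ± 0.06, adjusted p = 0.182). In each of these 4 the 3 4OHT arrays lay above the 3 EtOH arrays, which was so for 11.2% of all genes. The other 6 genes differed by -0.05 to 0.11 and overlapped. The median of the 10 was 0.11, and that of all genes 0.00. Estimated array weights called 4 of the 10 higher, against 5.26% of all genes under that setting, and an intensity trend with robust eBayes called 3, against 3.06%. Leaving out EtOH 1 gave 1 call, Aqp7 (0.29, adjusted p = 0.0239). In the same comparison 2 of 9 adipocyte markers rose and 1 fell, 2 of 5 smooth muscle markers rose, and 2 of 6 macrophage markers fell. Of the 7 precursor markers, Pi16 rose (1.02 ± 0.13, adjusted p = 0.000564) and Pdgfra fell (-0.53 ± 0.09, adjusted p = 0.00489), both named after their values were seen. The part of these markers in the members' values was not tested.

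**Figure D3:**
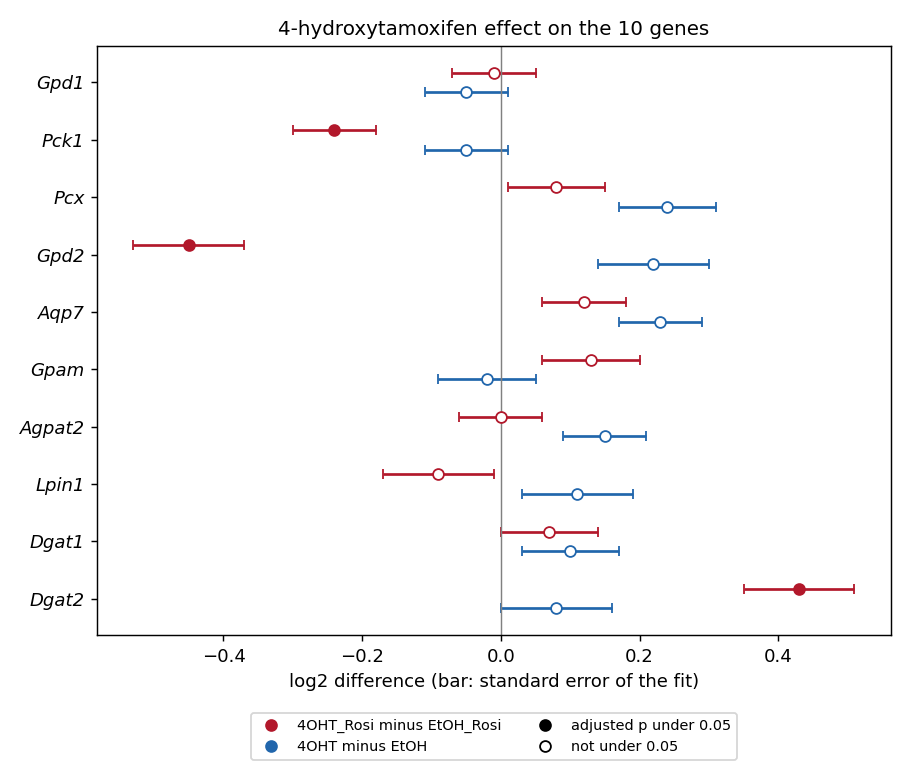
The log2 difference with 4-hydroxytamoxifen is plotted for each gene with rosiglitazone (4OHT_Rosi minus EtOH_Rosi) and without it (4OHT minus EtOH), with the standard error of the fit as the bar and filled points for an adjusted p under 0.05. Dgat2 at 0.43 and Gpd2 at -0.45 stand at opposite ends with rosiglitazone, and no point without rosiglitazone is filled.

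The difference between these 4-hydroxytamoxifen effects was tested as an interaction. Only Gpd2 passed among the 10, with -0.67 ± 0.12 (limma, adjusted p = 0.0213), where 0.482% of all genes were called in that direction and 0.523% in the other, or 1.01% in all. Its effect was negative with rosiglitazone and positive without it, where it was not called (adjusted p = 0.187). Leaving out 1 array ended the call for 4OHT 1 (adjusted p = 0.0704), 4OHT 3 (0.0572), EtOH_Rosi 2 (0.0586), EtOH 2 (0.0669) and EtOH 3 (0.0564), while the value stayed between -0.73 and -0.58 over all arrays left out. Dgat2 had 0.35 ± 0.11 (adjusted p = 0.172) and Pck1 -0.19 ± 0.09 (adjusted p = 0.351), so their effects were not shown to differ between the rosiglitazone conditions. The remaining 7 genes lay between -0.20 and 0.15.

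Other genes of the same or adjoining steps were counted from a list of 29, of which 26 were measured by a probe set of their symbol alone. Gk, Acsl1 and Acsl3 were not analysed here. In EtOH_Rosi against EtOH, 9 rose and 2 fell, against 14.4% and 16.3% of all genes, with a median of 0.12. In 4OHT_Rosi against 4OHT, 8 rose and 4 fell, against 11.6% and 12.1% of all genes, with a median of 0.05.

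By role, EtOH_Rosi against EtOH, where 14.4% of all genes were higher and 16.3% lower, gave 5 higher and 2 lower of 14 acyltransferases and phosphatases. It gave 3 higher of 7 genes of glycerol and glycerol 3-phosphate supply or removal, and 1 higher of 5 genes of fatty acid activation and droplet assembly. Aqp11, an aquaporin that can pass glycerol, had 10.35, 10.11 and 9.66 in 4OHT_Rosi, 10.14, 10.15 and 10.15 in EtOH_Rosi, 8.61, 8.27 and 8.22 in 4OHT, and 8.23, 7.58 and 7.64 in EtOH. It rose 3.19-fold after 4-hydroxytamoxifen and 5.03-fold after ethanol (limma, adjusted p = 1.45e-05 and 5.81e-07), the largest of the 26 differences in either comparison. Pgp, a phosphatase that can act on glycerol 3-phosphate, rose by 0.95 ± 0.09 and 1.06 ± 0.09, and Fitm2, a protein of lipid droplet formation, by 0.79 ± 0.06 and 0.92 ± 0.06. Among the acyltransferases, Agpat3 rose by 0.60 ± 0.06 in both backgrounds. The 2 genes that fell after ethanol were the lipid phosphate phosphatases Plpp1 (-0.55 ± 0.06) and Plpp3 (-0.43 ± 0.06). After 4-hydroxytamoxifen these were lower again (-0.20 ± 0.06 and -0.41 ± 0.06), as were the lipin gene Lpin3 (-0.33 ± 0.08) and the mitochondrial carboxykinase gene Pck2 (-0.32 ± 0.08). Plpp1, Lpin3 and Pck2 lost the call in 4OHT_Rosi against 4OHT without 4OHT_Rosi 1, which left a count of 1, and without 4OHT 1 the count was 2. For Plpp1 the call was lost in 9 of the 12 fits without 1 array. Genes with a count of 5 or fewer were named after their values were seen.

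For 4-hydroxytamoxifen with rosiglitazone, 4 of the 26 rose and 3 fell, against 4.65% and 3.38% of all genes. The acyltransferase gene Gpat3, which acts at the same step as Gpam from the endoplasmic reticulum, had 10.87, 10.94 and 10.88 in 4OHT_Rosi against 10.43, 10.32 and 10.21 in EtOH_Rosi. It rose by 0.58 ± 0.07 (limma, adjusted p = 0.000144), whereas the 4OHT and EtOH arrays, at 10.47 to 10.52 and 10.17 to 10.35, gave 0.24 ± 0.07 (adjusted p = 0.0728). Plpp1 (0.38 ± 0.06), the acyl-CoA synthetase gene Acsl5 (0.34 ± 0.05) and Fitm2 (0.27 ± 0.06) rose too. Lpin3 (-0.40 ± 0.08), Pck2 (-0.38 ± 0.08) and Agpat5 (-0.29 ± 0.07) fell, and without 4OHT_Rosi 1 their count was 1. Fitm2 lost its call without EtOH_Rosi 1, 4OHT_Rosi 1 or 4OHT_Rosi 2 (highest adjusted p = 0.0639). Without rosiglitazone, Fitm2 (0.41 ± 0.06, adjusted p = 0.00295) and Acsl5 (0.25 ± 0.05, adjusted p = 0.0143) rose and 0 fell, against 2.13% and 1.79% of all genes. Acsl5 lost that call without 4OHT 1, 4OHT 2, EtOH 2 or EtOH 3, with a highest adjusted p of 0.0755, which left a count of 1. In the interaction 0 of the 26 passed.

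**Figure D4:**
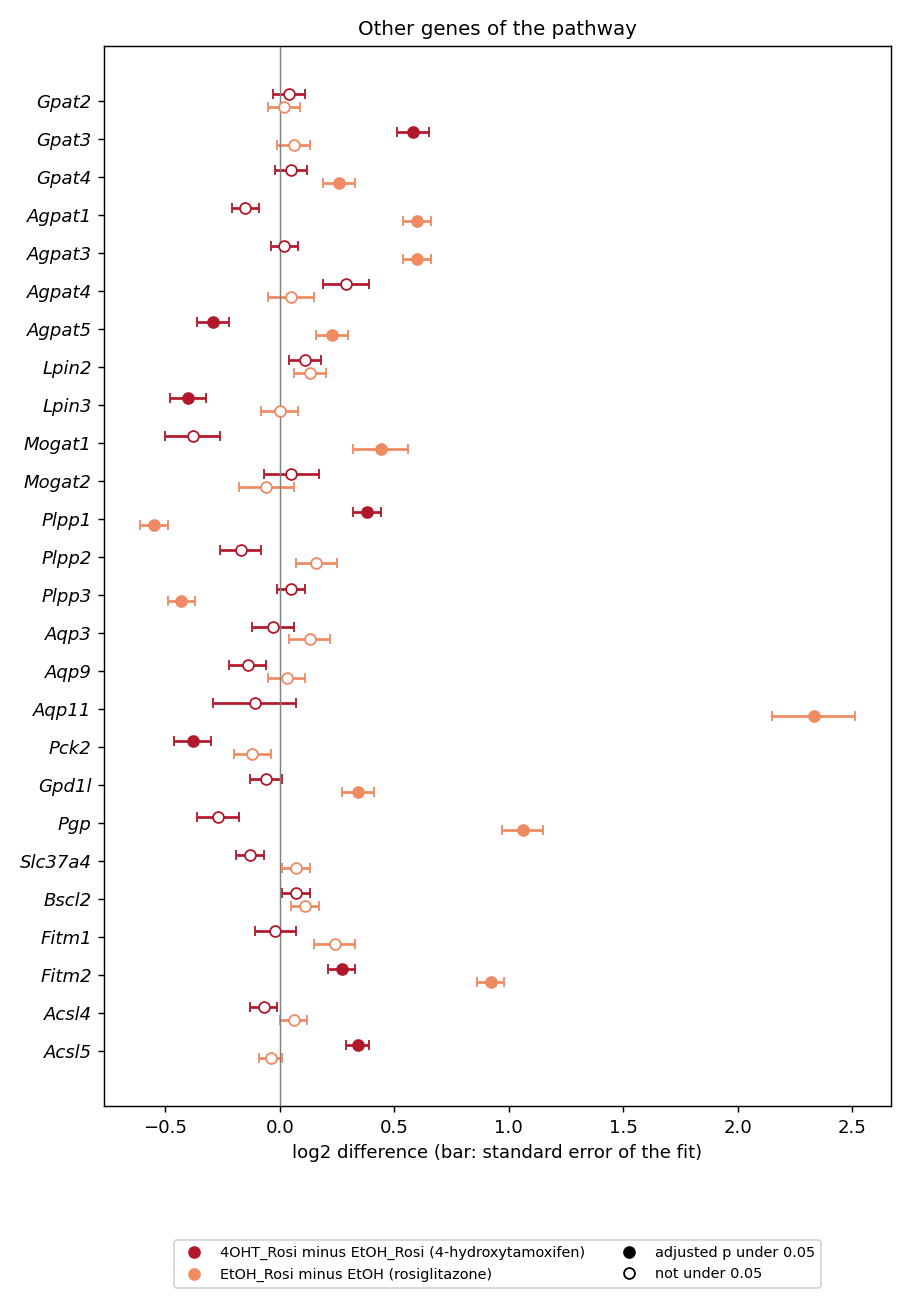
The log2 difference of the 26 other pathway genes is plotted for 4-hydroxytamoxifen with rosiglitazone (4OHT_Rosi minus EtOH_Rosi) and for rosiglitazone after ethanol (EtOH_Rosi minus EtOH), with the standard error as the bar and filled points for an adjusted p under 0.05. Aqp11, Pgp and Fitm2 have the largest rosiglitazone rises, and Gpat3 has the largest 4-hydroxytamoxifen rise, at 0.58. These comparisons share the EtOH_Rosi arrays.

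Profiles most like those of Gpd1, Aqp7, Lpin1 and Dgat2, the 4 genes whose group means spanned at least 1 log2 unit, were sought among genes at or above the median level. Likeness was the root mean square difference between centred log2 profiles over the 12 arrays. For Gpd1 the nearest were Dnajc15 (0.054), Anxa2 (0.0693) and Etfdh (0.0734), and for Aqp7 they were Dusp10 (0.0419), 4931406C07Rik (0.0507) and Lzic (0.0692). The profile of Lpin1 was nearest to those of Eci1 (0.0544), Hadha (0.06) and Mtfp1 (0.0605). Dgat2 had no neighbour as close, the nearest being Plxnd1 (0.112), Cpne2 (0.12) and Apcdd1 (0.122). Under quantile normalization 3 of the 3 names stayed for Gpd1 and 2 of the 3 for each of Aqp7, Lpin1 and Dgat2, where Lzic, Hadha and Cpne2 dropped out.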

How the data were processed

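The authors deposited log2 values for 41345 probe sets on 12 Affymetrix arrays. Affymetrix Expression Console is named in the submitters' processing notes; no source used here gives its version, the summary method, the normalization or a genome build. No values were missing, and array medians lay between 5.97 and 6.05. With 3 arrays a group, that number limits the precision.

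Of the probe sets, 23521 had a single gene symbol, and 23328 of these were matched by Entrez ID to current RefSeq names. The brightest was kept per gene, which gave 22180 genes with no filter. limma 3.58.1 (R 4.3.3) fitted 1 mean per group to all 12 arrays, with eBayes (8 residual and 5.07 prior degrees of freedom), and 5 contrasts. The steps were tested on simulated data. Figures were drawn with matplotlib 3.10.9.

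Arrays were grouped by their titles. Same-numbered arrays did not deviate together: the correlation of their deviations from group means lay between -0.24 and 0.079 over the 12 pairs. Named genes were the members, Prdm16, the listed pathway genes called or with the smallest p, cell type markers, and the 3 nearest profiles. Alternatives were leaving out each array, a 2-fold minimum, median centring, quantile normalization, the mean of a gene's probe sets, dropping genes under the 25th or the 50th percentile, array weights, trend with robust eBayes, a replicate block and fits of 2 groups. Reading the dimmer probe sets on their own and every alternative for the other pathway genes were chosen after seeing the data. The members, lists and tests were chosen with earlier results of these data known.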

Additional observations from a re-analysis of the deposited data

Results flagged for a closer look

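Gpd2 was singled out because its response to 4-hydroxytamoxifen differed with rosiglitazone: the effect was -0.45 ± 0.08 with it and 0.22 ± 0.08 without it, a difference of -0.67 (limma interaction, adjusted p = 0.0213, range over the alternatives 0.00621 to 0.0704). On its own, the effect without rosiglitazone was not called (limma, adjusted p = 0.187), so a reversal of direction was not shown. All 3 4OHT_Rosi arrays lay below the 3 EtOH_Rosi arrays, which was so for 10.3% of all genes. All 3 4OHT arrays lay above the 3 EtOH arrays, which was so for 11.2%.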

How the results depend on the processing

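Of 1139 values of the 10 genes and Prdm16 under the alternatives, 1095 kept their side of the threshold without a change of sign, 19 passed where they had not, 14 no longer passed and 11 changed sign. Several alternatives cannot change a difference or its sign, only its p-value. Among them are the trend with robust eBayes, the percentile filters and leaving out an array of neither group compared. Part of the agreement in sign was thus fixed in advance. Agpat2 in 4OHT_Rosi against EtOH_Rosi is among the 1095, with a difference of 0.00 that has no direction and values of -0.03 to 0.03. No sign change was in a called difference. The 11 changes of sign were in Gpam in 4OHT against EtOH (-0.02; from -0.04 to 0.01 without 1 array), Gpd1 in 4OHT_Rosi against EtOH_Rosi (-0.01; 0.02 under quantile normalization, and from -0.03 to 0.01 without 1 array), in 4OHT against EtOH (-0.05; from -0.08 to 0.01) and in the interaction (0.05; from -0.01 to 0.08), and Gpd2 in 4OHT_Rosi against 4OHT (-0.01; 0.03 under array weights, 0.01 under median centring, from -0.06 to 0.08 without 1 array).

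The count of members lower in 4OHT_Rosi than in EtOH_Rosi was 2 and became 1 with the replicate block, with only the 2 groups fitted, with trend and robust eBayes and without genes under the 50th percentile, which leaves out Pck1. It lay between 1 and 2 without 1 array. Members higher in 4OHT than in EtOH numbered 0, against 3 with trend and robust eBayes, 4 with array weights, 2 without genes under the 50th percentile, and 0 to 1 without 1 array. In that comparison 2.13% of all genes were called higher, against 3.06%, 5.26% and 6.07% under those 3 settings. The count of members with a lower interaction was 1, and 0 to 1 without 1 array. With a 2-fold minimum, 3 members were higher and 1 lower in EtOH_Rosi against EtOH, 2 and 0 in 4OHT_Rosi against 4OHT, 0 and 0 in 4OHT_Rosi against EtOH_Rosi, and 0 in the interaction. The share of all genes at this minimum was not counted, so these counts do not show how the members compare with other genes. The replicate block changed no other member count.

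Among the other pathway genes, for which these alternatives were chosen after seeing the data, fitting only 2 groups gave 0 lower in 4OHT_Rosi against EtOH_Rosi (3 in the fit of all arrays). Array weights gave 5 higher and 1 lower in 4OHT against EtOH (2 and 0), against 5.26% and 4.85% of all genes under that setting. Trend with robust eBayes gave 2 and the 50th percentile filter 1 higher in the interaction (0), against 0.866% and 1.8% of the genes tested. The causes were not tested. Pck1 was measured near the median level of genes, and Agpat2 above their 95th percentile.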
